A study of Mus musculus with 9 samples.

Results

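Mouse ESCs that switched on a forced E2A homodimer were compared between 18 h and 24 h of induction, to ask which genes kept moving and which turned back toward their level before induction. The comparison used 6 of the 9 libraries of the series, 3 at 18 h and 3 at 24 h, joined into pairs by replicate number. The 3 libraries at 0 h were used to say where a gene stood before induction and to estimate the spread. All 9 libraries came from an ESC line in LIF/serum with a doxycycline (dox)-inducible transgene placed upstream of Hprt, which encodes FLAG-tagged E47 tethered to a further E47 by a flexible linker. The 0 h cells carried the same transgene without dox, and the cells at 18 h and 24 h had received dox at 1 µg/ml. Dox-free cells kept for 18 h or 24 h were not analysed here, so time in culture and induction cannot be told apart. Cells given dox without the transgene were not analysed either, so dox itself and the homodimer cannot be told apart.

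E47 is a splice product of the E2A gene (Tcf3), which encodes a basic helix-loop-helix transcription factor. Such factors bind E-box DNA as dimers. Id proteins lack the basic region and hold E proteins in dimers that do not bind DNA, and linking the E47 copies covalently was designed to escape that restraint. In ESCs, E proteins are linked to the exit from pluripotency toward the anterior neural fate. Lefty1 and Lefty2 encode secreted inhibitors of Nodal, a signal that opposes neural commitment, and Sox1 is an early marker of the neural plate.

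Libraries held 22028363 to 26471569 reads on genes, and the 3 libraries of each time point came from experiments the study calls biological replicates. The Tcf3 signal, which includes reads from the coding sequence of the transgene, was 473, 436 and 433 CPM (read counts scaled to a common library size) at 18 h and 420, 381 and 436 CPM at 24 h, against 153 to 168 CPM at 0 h. Its log2 difference between 24 h and 18 h was -0.12 ± 0.05 (SE), with an adjusted p of 0.299. Its unadjusted p was under 0.05, and the limma test on only the libraries at 18 h and 24 h called it lower. The 4 Id genes stood higher at 18 h than at 0 h and had log2 differences between -0.00 and 0.22 from 18 h to 24 h. None of these passed the limma test, edgeR and DESeq2 called 0 of them and 0 had an unadjusted p under 0.05. The sign for Id1 turned between settings (0.0359 after quantile normalization), as did that for Id3 (-0.00172 after median centring). As to the cell type, Pou5f1 stayed at 512 CPM or more in every library, and the markers of fibroblasts and of B lineage cells had median log2 differences of 0.12 and 0.09, which ran from 0.0046 to 0.23 and from 0.025 to 0.23 over all settings.

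From 18 h to 24 h, 123 of 19210 genes rose (0.640%) and 54 fell (0.281%). The test was limma on log2(CPM + 0.1), with the replicate number as a block and an adjusted p limit of 0.05, and every difference given for a gene is on this log2 scale with its SE. All 177 moved in the same direction in all 3 pairs, and their changes were small, with a median of 1.35-fold among genes that rose and 0.819-fold among genes that fell. For 91 of the 123 the 3 libraries at 24 h lay above all libraries at 18 h, which held for 6.42% of all genes, and for 34 of the 54 they lay below, which held for 6.32%. A 2-fold difference was reached by 6 genes (0.0312%). Among them, Proca1 and Sox1 rose by log2 differences of 1.36 and 1.17. Sprr1a, which encodes a cornified envelope protein of epithelia, Gm20627 and 4930507D05Rik differed by -1.10, -1.32 and -1.39. The last of these rested on 9, 12 and 12 reads at 18 h and 2, 4 and 3 reads at 24 h.

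**Figure D1:**
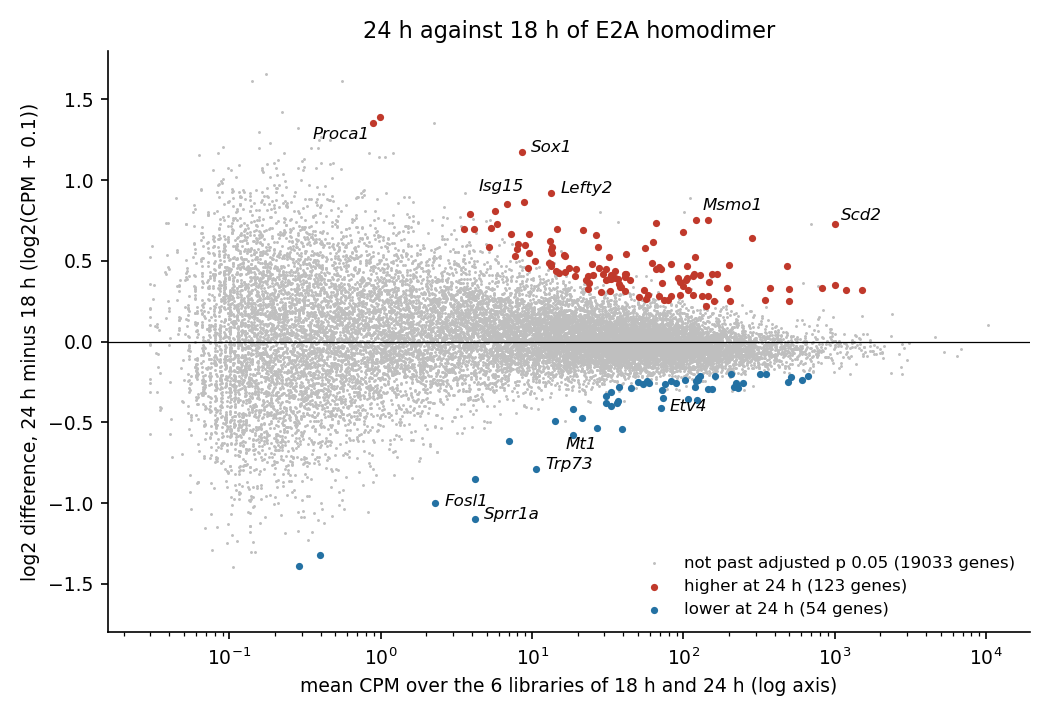
Each point is 1 of 19210 genes. The x axis gives the mean CPM over the 6 libraries on a log axis and the y axis the log2 difference of 24 h minus 18 h on the log2(CPM + 0.1) scale, with 123 genes that rose in red and 54 that fell in blue. The sterol and desaturase genes Msmo1 and Scd2 stand out at high levels, and Sox1, Lefty2 and Isg15 at lower ones.

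These calls rested on the pairing. A fit that ignored the replicate number called 0 genes in limma, with 989 genes at an unadjusted p under 0.05, and 0 in edgeR, with 983. With the block, edgeR on the recovered reads called 157 genes higher and 56 lower, among them all 123 and 52 of the 54, and DESeq2 called 146 and 97. Using only the libraries at 18 h and 24 h gave 1026 and 904 calls, values scaled per transcript length (FPKM) 4 and 2, and a variance without an intensity trend 0 and 1. Centring each library on its median moved the median difference of all genes from 0.0047 to -0.054 and gave 101 higher and 293 lower calls, so that 25.6% of calls were higher in place of 69.5%. Leaving out 18 h replicate 1, 2 or 3 left 57, 60 and 14 higher and 14, 15 and 1 lower calls, and leaving out 24 h replicate 1, 2 or 3 left 16, 55 and 20 higher and 2, 11 and 2 lower calls. Calls that held whichever of these 6 libraries was left out were made for 15 genes, among them Hmgcs1, Cyp51, Msmo1, Insig1, Scd1, Scd2, Acsl3, Rdh11, Dnajc3, Isg15, Lefty2 and Nanog, which rose, and Etv4, which fell. When each replicate number was left out in turn as well, 7 of these calls held, for Cyp51, Hmgcs1, Insig1, Lefty2, Msmo1, Scd1 and Scd2. The p-values measure the spread between these libraries. For 1 gene, an exact two-sided permutation within 3 pairs can reach no p under 0.25. Calls given for lists below are those of the fit to all 9 libraries.

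Where the 123 rising genes had stood at 18 h divided them into 3 sets of like size. Between 0 h and 18 h, 46 of them had fallen past the adjusted p limit, as had 13.1% of all genes, 40 had risen, as had 14.5%, and 37 had not passed. Of the 46, at 24 h 29 no longer differed from 0 h past the limit, 12 were still lower and 5 were higher. Of the 54 falling genes, 23 had risen by 18 h, 13 had fallen and 18 had not passed, and 17 of the 23 no longer differed from 0 h past the limit at 24 h. Among all genes, 16.5% were higher and 14.9% lower at 24 h than at 0 h. Both differences share the 18 h libraries, so these numbers describe the order of levels and test nothing. Of 92 rising genes with a RefSeq promoter, 18 held the E-box CAGCTG and 23 held CAGGTG on either strand, against 18.7% and 22.7% of tested genes with a promoter.

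Most of the sterol genes that rose had fallen first. Of 22 measured genes of cholesterol synthesis, uptake and their regulators, 15 rose from 18 h to 24 h, as did 0.640% of all genes. All 22 were higher at 24 h in all 3 pairs, as were 20.7% of all genes. For 18 of the 22 the 3 libraries at 24 h lay above all libraries at 18 h, which held for 6.42% of all genes. The median log2 difference of the list was 0.42, with a range from 0.10 to 0.75, against a median of 0.0047 over all genes. By 18 h, 14 of the 22 had fallen below 0 h past the limit (13.1% of all genes), 12 of them among the 15 that then rose. The median difference was -0.34. At 24 h against 0 h, the median was 0.07. Of the 22, 7 genes were then higher and 3 lower past the limit, against 16.5% and 14.9% of all genes.

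Msmo1, an oxidase that demethylates sterol intermediates, was at 117, 151 and 167 CPM at 0 h, at 78.2, 99.5 and 94.4 CPM at 18 h and at 143, 150 and 163 CPM at 24 h. All libraries at 24 h were above those at 18 h and near those at 0 h. Its log2 difference was 0.75 ± 0.06 (SE, n = 3 pairs), with an adjusted p of 9.82e-06. Hmgcs1, which makes the HMG-CoA that feeds the pathway, went from 220, 235 and 210 CPM at 18 h to 345, 350 and 344 CPM at 24 h, against 279, 390 and 363 CPM at 0 h. Its difference was 0.64 ± 0.07 (adjusted p = 7.45e-05). Its libraries at 24 h lay above all 3 at 18 h and within the range of those at 0 h.

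Further down the pathway, Cyp51, the lanosterol demethylase, rose from 72.0, 86.1 and 72.7 CPM to 119, 121 and 128 CPM. Fdft1, Sqle and Lss, which build squalene and close it into a sterol, rose by 0.49, 0.42 and 0.40. Among regulators, Insig1, which holds SREBP precursors in the endoplasmic reticulum, rose from 48.8, 54.6 and 44.7 CPM to 89.5, 79.5 and 77.4 CPM. Of these 3 libraries at 24 h, 2 lay below all libraries at 0 h (84.6, 108 and 95.5 CPM). Stard4, a sterol carrier, rose by 0.42 ± 0.06. Stard4 had not fallen by 18 h (log2 difference of -0.04, adjusted p = 0.653).

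The 7 members that did not pass, among them Mvk, Ebp, Srebf2, Idi1 and Mvd, had differences from 0.10 to 0.47 that were positive in all 3 pairs. Srebf2, the transcription factor of the pathway, was at 222, 225 and 225 CPM at 18 h and at 274, 250 and 263 CPM at 24 h (adjusted p = 0.111). Reads of Cyp51 and Akap9, which overlap on opposite strands, were counted in a way not given in the sources used here. The pathway was called for 15 members by edgeR and DESeq2 with the block. It was called for 13, 11 and 6 members without 18 h replicate 1, 2 or 3 and for 6, 13 and 6 without 24 h replicate 1, 2 or 3, while all 22 differences stayed positive in each of these fits. Leaving out replicate number 1, 2 or 3 at all 3 times left 11, 12 and 4 members called.

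**Figure D2:**
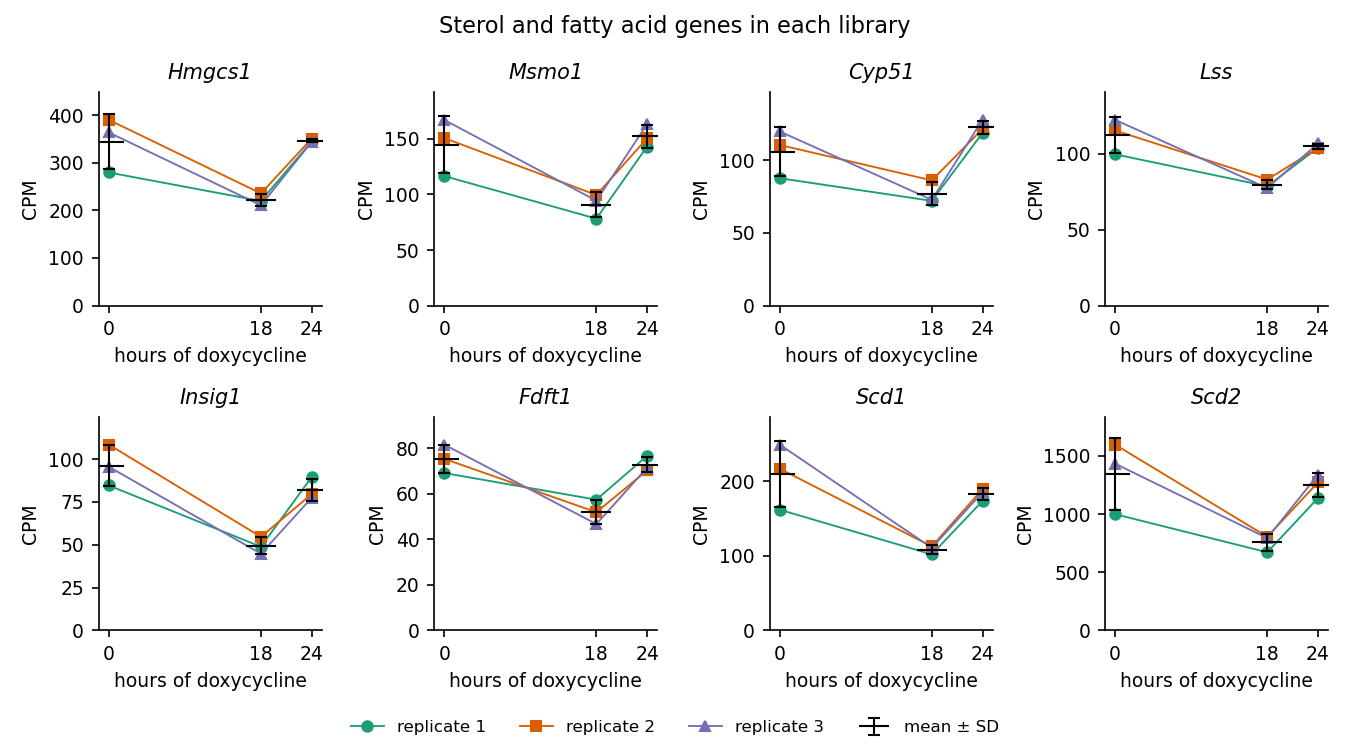
The panels give CPM (y axis, from 0) against hours of dox (x axis) for 8 sterol and fatty acid genes, with 1 line and marker for each replicate number and the mean ± SD of the 3 libraries in black. In each panel 18 h is the lowest point of every line, and all 3 libraries at 24 h are above all 3 at 18 h.

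The promoters of sterol genes are known to bind SREBP at sterol regulatory elements beside NF-Y, which recognises the CCAAT box. RefSeq promoters on GRCm38.p6, from 250 bases before the start site to 50 bases after it, were held for 14 of the 22 genes, and they were searched on both strands for CCAAT and CACNCCAC. The CCAAT box was found in 14 of these 14 genes, against 42.5% of the 12305 tested genes with a promoter (37.4% of all 32851 promoters). CACNCCAC was found in 2, Hmgcs1 and Insig1, against 7.89% (6.24%). Other lists held these letters often too, CCAAT in 16 of 17 ER chaperone and 15 of 21 fatty acid genes with a promoter, and CACNCCAC in 3 and 5 of them. The promoters of Hmgcs1, Insig1 and Msmo1 are printed because the first 2 are those that held CACNCCAC and Msmo1 had the largest difference of the list, with both patterns or their reverse complements in capitals. Cyp51, which changed more than Hmgcs1, held CCAAT but not CACNCCAC. None of the matches shown overlaps another, and a match describes letters and is no measured site.
Hmgcs1, chr13:119690101-119690400, plus strand: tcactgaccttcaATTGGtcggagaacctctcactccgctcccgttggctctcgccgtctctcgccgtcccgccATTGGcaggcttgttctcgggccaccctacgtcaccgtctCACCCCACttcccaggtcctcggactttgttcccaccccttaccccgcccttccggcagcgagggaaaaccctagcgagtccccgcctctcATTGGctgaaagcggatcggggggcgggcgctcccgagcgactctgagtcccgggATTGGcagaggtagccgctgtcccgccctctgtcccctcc
Insig1, chr5:28071162-28071461, plus strand: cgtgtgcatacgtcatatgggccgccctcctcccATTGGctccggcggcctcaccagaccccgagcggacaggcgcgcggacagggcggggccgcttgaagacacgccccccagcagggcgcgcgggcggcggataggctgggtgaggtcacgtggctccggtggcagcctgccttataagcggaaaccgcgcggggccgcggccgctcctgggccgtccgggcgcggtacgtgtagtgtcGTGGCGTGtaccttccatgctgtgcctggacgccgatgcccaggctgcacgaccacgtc
Msmo1, chr8:64733529-64733828, minus strand: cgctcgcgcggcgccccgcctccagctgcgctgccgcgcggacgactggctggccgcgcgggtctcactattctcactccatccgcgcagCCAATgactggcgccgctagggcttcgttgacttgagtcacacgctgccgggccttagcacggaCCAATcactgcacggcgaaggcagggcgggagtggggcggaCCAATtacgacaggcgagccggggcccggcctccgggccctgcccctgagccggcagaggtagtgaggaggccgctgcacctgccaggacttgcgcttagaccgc

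Part of the fatty acid genes, among them desaturases, rose like the sterol genes, while core synthesis genes did not pass. In a list of 24 fatty acid genes that was drawn up after values had been seen, 8 rose, as did 0.640% of all genes, 18 were higher in all 3 pairs, as were 20.7%, and the median difference was 0.20. All 8 had fallen by 18 h. Scd1 and Scd2, neighbouring genes on chromosome 19 (chr19:44394455-44407879 and chr19:44293674-44306864) that encode stearoyl-CoA desaturases, changed most. Scd1 was at 102, 112 and 110 CPM at 18 h and at 173, 189 and 185 CPM at 24 h, against 162, 217 and 249 CPM at 0 h, a difference of 0.75 ± 0.07 (adjusted p = 2.47e-05). Scd2 went from 671, 804 and 793 CPM to 1137, 1272 and 1338 CPM, with 999 CPM in the lowest library at 0 h. The groups did not overlap for either gene.

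Fads1 and Fads2, the desaturases of polyunsaturated fatty acids, rose by 0.37 and 0.47. Acsl3, which activates fatty acids to their CoA esters, rose by 0.38, and Idh1, a source of cytosolic NADPH, by 0.36. The core synthesis genes did not pass, with 0.05 for Fasn (adjusted p = 0.808), 0.13 for Acly and -0.01 for Acaca, and that for Srebf1, a transcription factor of fatty acid genes, was 0.17. Leaving out 18 h replicate 1, 2 or 3 left 6, 5 and 3 calls, and leaving out 24 h replicate 1, 2 or 3 left 3, 5 and 4. With replicate number 1, 2 or 3 left out at all 3 times, there were 4, 4 and 2 calls.

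Interferon-response and antigen-presentation genes formed a further group. In a list of 49 such genes, 47 of them measured, that was also drawn up after values had been seen, 15 rose (0.640% of all genes) and 35 were higher in all 3 pairs (20.7% of all genes), with a median difference of 0.30. These 15 came from different starts. The class I heavy chain genes H2-K1, H2-D1, H2-Q4 and H2-Q6 and the genes Isg15 and Slfn5 had fallen by 18 h. Zbp1, Gbp7, Oasl2, Tap2, Psmb8, Parp14 and Zc3hav1 had already risen by 18 h, and Igtp and Irgm2 had not passed. At 24 h, 29 of the 47 were higher and 2 lower than at 0 h past the limit, against 19 and 7 at 18 h, while the shares over all genes were 16.5% and 14.9% at 24 h and 14.5% and 13.1% at 18 h.

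Isg15, a ubiquitin-like protein that is joined to other proteins in cells exposed to interferon, was at 8.58, 8.59 and 8.84 CPM at 0 h, at 7.65, 5.98 and 5.28 CPM at 18 h and at 13.4, 9.998 and 11.1 CPM at 24 h. It was lowest at 18 h and highest at 24 h, with no overlap between the 3 times. Its difference of 24 h from 18 h was 0.86 ± 0.12 (adjusted p = 0.00138). Gbp7, a guanylate-binding GTPase, went from 11.8, 10.7 and 11.1 CPM to 18.6, 17.6 and 18.3 CPM, above 7.56 to 9.49 CPM at 0 h. Tap2, a subunit of the peptide transporter of antigen presentation, went from 22.0, 20.8 and 22.0 CPM to 30.8, 29.0 and 38.2 CPM. Psmb8, a subunit of the immunoproteasome, rose by 0.52 ± 0.09. H2-K1 stood at 107, 111 and 133 CPM at 0 h, at 70.0, 73.3 and 64.3 CPM at 18 h and at 98.8, 86.5 and 106 CPM at 24 h, and so came part of the way back.

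Among transcription factors of the interferon response, Irf9 and Irf1 did not pass. Irf9 was at 8.53, 7.72 and 7.90 CPM at 18 h and at 8.47, 8.34 and 8.01 CPM at 24 h, with overlapping libraries and a difference of 0.04. Irf1 had a difference of 0.20 (adjusted p = 0.159). Igtp and Irgm2 overlap on the same strand, and the H2, Gbp and Irgm genes belong to families of related genes. How reads with several alignments were handled is not given, and sequence identity was not tested, so the counts of these genes are uncertain. Without 18 h replicate 1, 2 or 3, 7, 6 and 1 members were called, and without 24 h replicate 1, 2 or 3, 1, 6 and 2. Leaving out replicate number 1, 2 or 3 at all 3 times left 4, 8 and 0 members called.

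The pattern AANNGAAA, part of the interferon-stimulated response element, was found in the promoters of 27 of 38 listed genes with a RefSeq entry, against 21.2% of tested genes with a promoter (23.9% of all promoters). The Isg15 promoter is printed since Isg15 had the largest difference of the list, with the pattern or its reverse complement in capitals. The longer run of capitals holds 3 overlapping matches.
Isg15, chr4:156200769-156201068, minus strand: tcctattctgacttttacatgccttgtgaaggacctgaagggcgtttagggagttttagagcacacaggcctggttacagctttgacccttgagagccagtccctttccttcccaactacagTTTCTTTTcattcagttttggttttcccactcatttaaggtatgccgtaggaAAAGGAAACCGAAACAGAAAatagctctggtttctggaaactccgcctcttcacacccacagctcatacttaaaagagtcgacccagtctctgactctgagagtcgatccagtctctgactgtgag

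**Figure D3:**
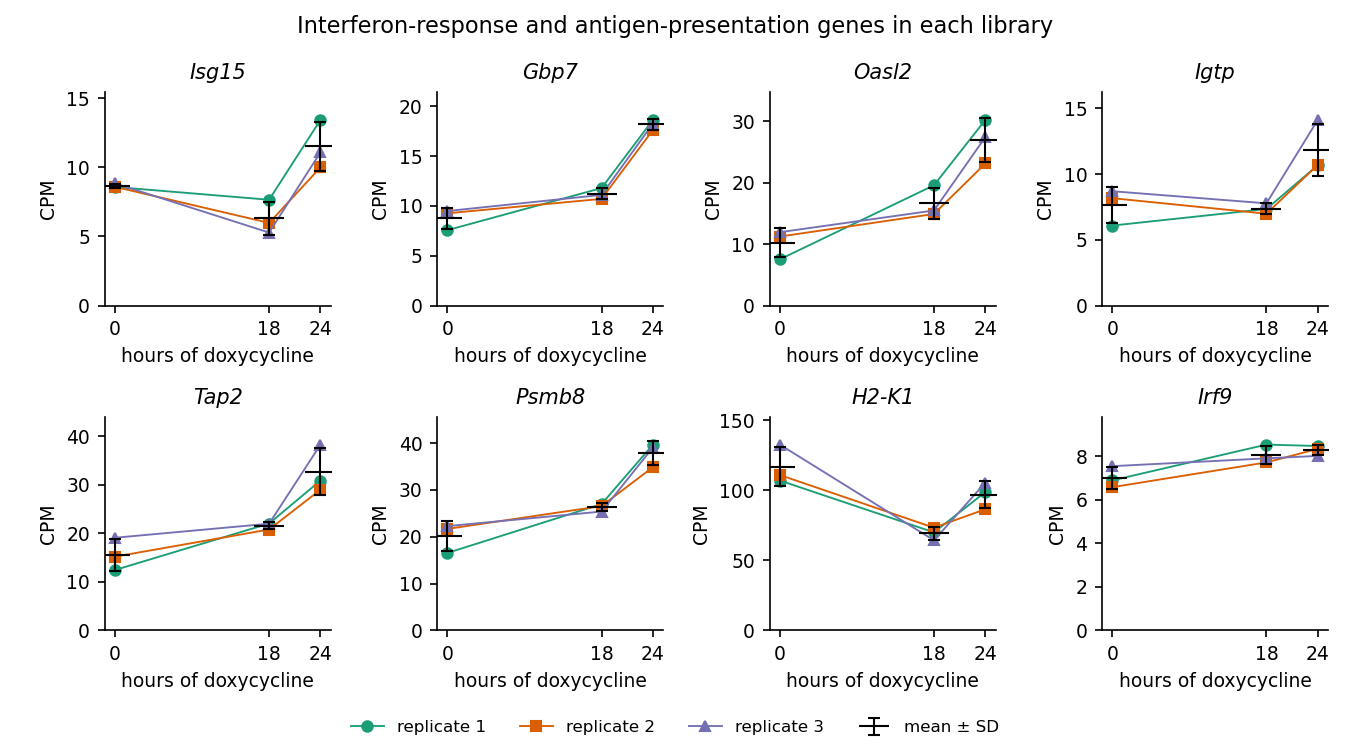
The panels give CPM (y axis, from 0) against hours of dox (x axis) for 8 interferon-response and antigen-presentation genes, with 1 line for each replicate number and the mean ± SD in black. Isg15 and H2-K1 dip at 18 h, Gbp7, Oasl2, Tap2 and Psmb8 climb at both steps, and the libraries of Irf9 at 18 h and 24 h overlap.

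ER chaperone and folding genes were shifted together by small amounts. Of 20 measured, 5 rose, namely Xbp1 (0.45 ± 0.08), Dnajc3 (0.45 ± 0.06), Pdia6 (0.33 ± 0.06), Hsp90b1 (0.33 ± 0.06) and Manf (0.28 ± 0.06). Xbp1 is a transcription factor of the unfolded protein response, and the others are chaperones, a disulfide isomerase or a secreted stress factor. The median of the list was 0.27 and 18 were higher in all 3 pairs, against 0.640% of all genes that rose and 20.7% that were higher in all pairs. Compared with 0 h, 9 were higher past the limit at 18 h (14.5% of all genes) and 17 at 24 h (16.5%). In each of these 5 genes the third pair differed most, as in Hspa5, the main ER chaperone, whose pairs differed by 0.16, 0.18 and 0.69 (adjusted p = 0.0684). Without replicate 3, or without 18 h replicate 3 alone, the median of the list was 0.16. Leaving out 18 h replicate 1, 2 or 3 gave 5, 3 and 1 calls, and leaving out 24 h replicate 1, 2 or 3 gave 1, 6 and 1. With replicate number 1, 2 or 3 left out at all 3 times, there were 2, 6 and 0 calls.

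Among neural genes, Sox1 kept climbing. It was at 1.01, 1.42 and 2.68 CPM at 0 h, at 3.47, 7.23 and 4.82 CPM at 18 h and at 7.09, 12.8 and 15.8 CPM at 24 h. All 3 pairs rose, by 1.01, 0.82 and 1.69, although 24 h replicate 1 lay just below 18 h replicate 2. The difference was 1.17 ± 0.20 (adjusted p = 0.00593), between 0.85 and 1.43 over all settings. Sox1 spans chr8:12395295-12400126 and overlaps Sox1ot on the same strand, so reads of these genes may be shared. Zfp521, a zinc finger factor known to drive neural differentiation of ESCs, rose from 4.66, 6.30 and 5.82 CPM to 7.56, 9.68 and 9.55 CPM and did not pass at 18 h against 0 h (-0.04, adjusted p = 0.844).

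Of 26 neural plate genes, limma called 2, Sox1 and Zfp521 (0.640% of all genes rose). DESeq2 with the block called 2 and edgeR with the block 3. Limma at a pseudocount of 1 CPM also called 3, among them Lhx2 (adjusted p = 0.0461). Limma on only the libraries at 18 h and 24 h called 6 higher and 1 lower, against 1026 and 904 of all 19210 genes. In all 3 pairs, 16 were higher and 2 lower (20.7% and 21.0% of all genes). The median was 0.28, with 0.13 at a pseudocount of 1 CPM, 0.14 over genes with a mean of at least 1 CPM and 0.18 without 24 h replicate 1. Against 0 h, 10 were higher past the limit at 18 h (14.5% of all genes) and 13 at 24 h (16.5%). Of the others, Lhx2 differed by 0.92 ± 0.30 (adjusted p = 0.159), Pax3 by 0.91 and Irx3 by 0.77 (adjusted p = 0.0782), while Sox2 (0.05) and Otx2 (0.02) were near 0. The neural plate list had 1, 2 and 0 calls without 18 h replicate 1, 2 or 3 and 0, 1 and 0 without 24 h replicate 1, 2 or 3. In bulk libraries, a change in the number of cells of a type and a change in RNA per cell cannot be told apart.

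For 25 neurogenesis genes, limma called 0, edgeR with the block 1 and DESeq2 0. At an unadjusted p under 0.05, 9 were higher and 2 lower, against 7.24% and 5.97% of all genes. Limma on only the libraries at 18 h and 24 h called 6 higher and 1 lower, against 1026 and 904 of all 19210 genes. The median was 0.22, with 14 higher and 2 lower in all 3 pairs, against 20.7% and 21.0% of all genes. Neurod4, a proneural factor, was at 1.495, 1.13 and 0.707 CPM at 18 h and at 6.07, 2.77 and 1.39 CPM at 24 h, after 0 to 0.278 CPM at 0 h. The levels spread widely within 24 h, and the difference of 1.35 ± 0.47 had an adjusted p of 0.193. Neurog3 gave 0.64 (adjusted p = 0.307) and Neurod1 -0.21 (adjusted p = 0.529). Outside these lists, Cplx2, a regulator of synaptic vesicle release, rose by 0.85, Tuba1a, a tubulin of developing neurons, by 0.35, and Msi1, an RNA-binding protein of neural progenitors, by 0.48. The call of Cplx2 held in 5 of 21 alternative settings. It was lost in limma at a pseudocount of 0.01 CPM (adjusted p = 0.0651). Msi1 had fallen by 18 h (log2 difference of -0.70).

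Among pluripotency genes, some rose and others fell. Nanog rose from 142, 105 and 138 CPM to 177, 145 and 173 CPM, a difference of 0.37 ± 0.05 (adjusted p = 0.00113) on top of a rise of 0.48 by 18 h. Its libraries at 24 h were all above those at 18 h. Dppa3, a maternal factor of naive cells, rose by 0.29, also after a rise. Pou5f1, the core factor Oct4, fell from 741, 620 and 606 CPM to 644, 512 and 517 CPM, a difference of -0.24 ± 0.04 (adjusted p = 0.0129) after -0.35 by 18 h. The replicates of Pou5f1 overlap between the times while each pair fell. Utf1, L1td1 and Dnmt3l, which are also expressed in pluripotent cells, fell, with differences of -0.29, -0.25 and -0.21. Of the 23 naive pluripotency genes, 2 rose and 1 fell, against 0.640% and 0.281% of all genes. In all 3 pairs, 8 were higher and 5 lower, against 20.7% and 21.0% of all genes. The median was 0.05 (-0.01 after median centring). Esrrb (0.05), Klf4 (-0.01) and Zfp42 (0.05) did not pass. Nanog kept its call whichever of the 6 libraries was left out, and Dppa3 and Pou5f1 lost theirs in each of these fits. With replicate number 3 left out at all 3 times, the 23 genes had 0 calls, so Nanog lost its call there.

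In the Nodal pathway the inhibitors stood out. Lefty2 (chr1:180893108-180899103) fell from 38.0, 31.5 and 27.3 CPM at 0 h to 10.9, 9.74 and 6.99 CPM at 18 h and was at 21.7, 17.0 and 13.7 CPM at 24 h. Each pair regained less than what it had lost, and no library at 24 h reached the lowest of 0 h. The difference of 24 h from 18 h was 0.92 ± 0.08 (adjusted p = 1.88e-05) and that of 24 h from 0 h was -0.89. Lefty1 moved otherwise, from 77.6, 87.7 and 74.96 CPM at 0 h through 115, 85.5 and 89.95 CPM to 183, 122 and 117 CPM, a rise of 0.52 ± 0.09 after 18 h (adjusted p = 0.0105). The receptor gene Acvr1b rose by 0.31. Nodal itself (-0.06), the co-receptor Tdgf1 (-0.19, adjusted p = 0.0613) and Foxh1 (-0.13) did not pass in limma. Tdgf1 was called lower by DESeq2 (adjusted p = 0.0221), after median centring and with only the libraries at 18 h and 24 h, and the median of the 16 genes was -0.01 (-0.07 to 0.03 over all settings). Of the 16 genes, limma called 3 higher (0.640% of all genes). In all 3 pairs, 6 were higher and 5 lower (20.7% and 21.0% of all genes). Lefty2 kept its call whichever of the 6 libraries was left out. The Nodal pathway had 2, 1 and 1 calls without 18 h replicate 1, 2 or 3 and 1, 2 and 1 without 24 h replicate 1, 2 or 3.

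Targets of FGF and ERK signalling fell in part. Etv4, an ETS factor induced by ERK, went from 108, 118 and 105 CPM at 0 h to 82.4, 83.4 and 77.0 CPM at 18 h and 61.9, 63.1 and 57.4 CPM at 24 h, with no overlap between times. Its pairs differed by -0.41, -0.40 and -0.42 (adjusted p = 0.000617). The feedback inhibitors Spry4 and Dusp4 fell, with differences of -0.36 and -0.26, and Il17rd, another antagonist of FGF signalling, rose by 0.32. Of the 21 genes of the list, 1 rose and 3 fell, against 0.640% and 0.281% of all genes. In all 3 pairs, 4 were higher and 9 lower, against 20.7% and 21.0% of all genes. Dusp6 (-0.21, adjusted p = 0.356), Etv5 (-0.12) and Spry2 (-0.06) did not pass. Without 18 h replicate 1, 2 or 3 the list had 2, 1 and 1 lower calls, and without 24 h replicate 1, 2 or 3 it had 1, 2 and 1. Fosl1, an AP-1 subunit, fell from 2.55, 3.47 and 3.20 CPM to 1.30, 1.62 and 1.54 CPM, a difference of -0.996 ± 0.19 (adjusted p = 0.0124). It was the 1 limma call among 23 immediate early genes (0.281% of all genes fell), while DESeq2 with the block called 2 lower. Of the 23, 10 were lower and 1 higher in all 3 pairs (21.0% and 20.7% of all genes). Fosl1 kept its limma call without 18 h replicate 1 but not without any other of the 6 libraries.

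Several p53 targets reached a peak at 18 h. Mdm2, the ubiquitin ligase of p53, Pmaip1, a pro-apoptotic BH3 protein, and Phlda3, an inhibitor of AKT, fell, with differences of -0.26, -0.42 and -0.24, after they had risen by 0.15, 0.30 and 0.31. Of the 19 genes of the list, 3 fell (0.281% of all genes), 14 were lower and 1 higher in all 3 pairs (21.0% and 20.7% of all genes) and the median was -0.14 (-0.09 without 24 h replicate 3). Against 0 h, 12 were higher past the limit at 18 h (14.5% of all genes) and 6 at 24 h (16.5%). Cdkn1a had a difference of -0.06 (adjusted p = 0.697) and stayed above its level at 0 h. Trp73, the p53 relative, was at 9.32, 11.8 and 20.0 CPM at 18 h and at 6.42, 7.43 and 8.86 CPM at 24 h, against 7.25 to 8.24 CPM at 0 h. The third pair differed most (-1.17, against -0.53 and -0.66), and the adjusted p was 0.0128. The 3 calls of the list were lost without 18 h replicate 1, 18 h replicate 3, 24 h replicate 1 or 24 h replicate 3, and 1 was left without 18 h replicate 2 or 24 h replicate 2.

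Genes that differed at least 2-fold between 0 h and 18 h past the adjusted p limit numbered 519 higher (2.70%) and 308 lower (1.60%). From 18 h to 24 h, 20.7% of all genes were higher and 21.0% lower in all 3 pairs. Of the 519, 142 (27.4%) moved further up in all 3 pairs, 100 (19.3%) moved back down in all 3 pairs and 277 were mixed. Of the 308, 31 (10.1%) moved further down in all 3 pairs and 88 (28.6%) moved back up. The share of higher genes that moved back down is thus near that of all genes that were lower. Both directions together made 827 genes, of which 173 moved on and 188 turned back. At a pseudocount of 1 CPM they were 214 genes, of which 81 moved on and 41 turned back, so the order of the counts was reversed. The start of each gene is its fitted difference, and 79 of the 88 had fallen by 18 h in all 3 pairs. With a mean of at least 1 CPM, where 23.8% of all genes were higher and 24.1% lower in all 3 pairs, the shares were 39.7% on and 14.98% back of 287 higher genes, and 17.4% on and 31.2% back of 109 lower genes. Both steps share the 18 h libraries, so these counts are a description. Of these 2-fold genes that moved on, 6 also passed the adjusted p limit from 18 h to 24 h (Sox1, Cplx2, Nrk, Rgs16, Peg3 and Trp53i11), and of those that turned back 3 did (Sprr1a, Sdc4 and Lefty2).

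Nrk, a kinase gene on the X chromosome, was at 18.0, 24.0 and 23.7 CPM at 0 h, at 55.6, 45.8 and 47.2 CPM at 18 h and at 86.9, 67.5 and 74.3 CPM at 24 h, with no overlap between times. Peg3, an imprinted zinc finger gene, rose by 0.25 after a rise of 1.57, and Rgs16, a regulator of G protein signalling, by 0.46 after 1.45. Sprr1a (chr3:92483952-92485895) was at 0.718, 0.964 and 0.972 CPM at 0 h, at 3.61, 6.02 and 7.86 CPM at 18 h and at 1.97, 3.12 and 2.67 CPM at 24 h. All 3 libraries at 24 h lay between the other times. Sdc4, a heparan sulfate proteoglycan of the cell surface, fell by 0.21 after a rise of 1.20. Tnnt3 (-0.83, adjusted p = 0.233) and Ccdc17 (-0.84, adjusted p = 0.121) also turned back in each pair.

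**Figure D4:**
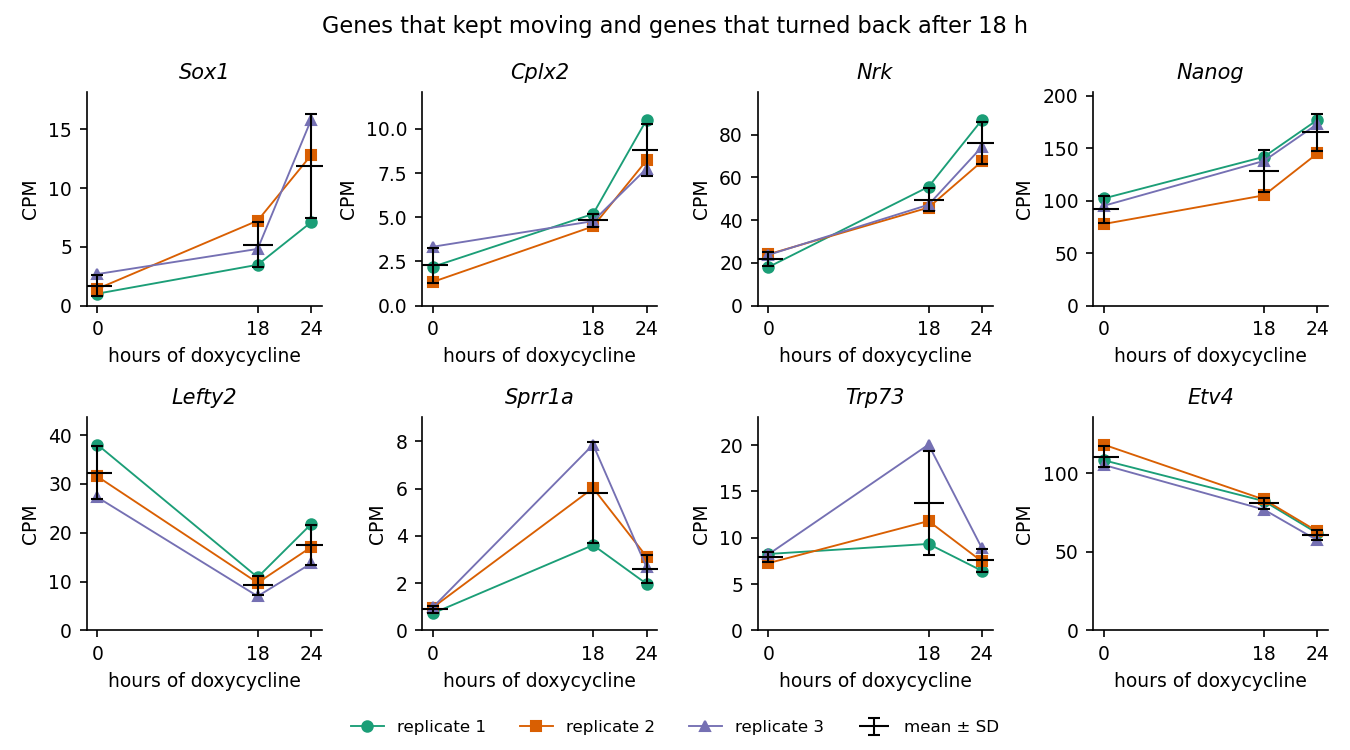
The panels give CPM (y axis, from 0) against hours of dox (x axis) for 8 genes, with 1 line for each replicate number and the mean ± SD in black. Sox1, Cplx2, Nrk and Nanog rise at both steps in every replicate, Etv4 falls at both, and Lefty2, Sprr1a and Trp73 turn back after 18 h.

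Among genes whose fitted level at 18 h was at least 2-fold below 0 h, Lars2 and the small RNA or antisense genes Gm23935, Gm24187, Gm24270, Gm15564 and Mir6236 were higher at 24 h than at 18 h in each pair, by 0.73 to 0.89, without passing the test. In replicate 3 all 6 were higher at 18 h than at 0 h, so that pair did not turn back. Lars2 was at 1210, 996 and 755 CPM at 0 h, at 196, 440 and 1002 CPM at 18 h and at 324, 1021 and 1188 CPM at 24 h. The libraries of 1 time point differed by more than the time points did, and the adjusted p was 0.343.

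In the lists that follow, the shares over all genes were 0.640% that rose, 0.281% that fell, and 20.7% higher and 21.0% lower in all 3 pairs. Mt1 and Mt2, the metallothioneins, fell, with differences of -0.54 each, as did the zinc transporters Slc30a2 and Slc39a14 (-0.58 and -0.30), in a list of 17 drawn up after values had been seen. Of the 17, 3 were higher and 4 lower in all 3 pairs, near the shares over all genes, and the median was 0.02 (-0.04 after median centring). The list had 3, 1 and 0 calls without 18 h replicate 1, 2 or 3 and 1, 2 and 0 without 24 h replicate 1, 2 or 3. Of 29 ribosome biogenesis genes, a list drawn up likewise, 27 were lower in all 3 pairs, 4 fell (Wdr46, Tcof1, Gtf3c1 and Utp20) and the median was -0.15. These 4 calls were lost whichever of the 6 libraries was left out, while the median stayed between -0.18 and -0.13. Of 34 ATF4 and amino acid response genes, 32 were lower at 18 h than at 0 h past the limit (13.1% of all genes) and 32 at 24 h (14.9%). Their median differences from 0 h were -1.23 and -1.28. Between 18 h and 24 h, 13 were lower and 6 higher in all 3 pairs. From 18 h to 24 h their median was -0.04, and its sign rested on single libraries, with 0.12 and 0.09 without 18 h replicate 2 or 24 h replicate 3 and -0.14 and -0.20 without 18 h replicate 3 or 24 h replicate 2. In that list limma, edgeR with the block and DESeq2 called 0. The limma fit to 9 libraries had 1 gene higher and 3 lower at an unadjusted p under 0.05 (7.24% and 5.97% of all genes). Limma on only the libraries at 18 h and 24 h called 2 higher and 10 lower, against 1026 and 904 of all 19210 genes. The 21 aminoacyl-tRNA synthetase genes had a median of -0.07 (-0.03 without 24 h replicate 3 and -0.12 without 24 h replicate 2), with 15 lower and 2 higher in all 3 pairs. For them too, limma, edgeR with the block and DESeq2 called 0, with 4 lower at an unadjusted p under 0.05 in the fit to 9 libraries, and limma on only the libraries at 18 h and 24 h called 4 lower. The glucose transporters Slc2a1 and Slc2a3 rose by 0.32 each, in a list of 24 glycolysis and hypoxia genes of which 5 were higher, near the share over all genes, and 10 lower in all 3 pairs, with a median of -0.05 (-0.11 to 0.01 over all settings). That list had 2, 1 and 0 genes called higher without 18 h replicate 1, 2 or 3 and 0, 2 and 0 without 24 h replicate 1, 2 or 3. Among 24 imprinted genes 3 rose, with Igf2 and Mest at 0.40 and 0.26, 12 were higher and 1 lower in all 3 pairs and the median was 0.14 (0.08 to 0.18 over all settings). With 18 h replicate 1, 2 or 3 left out, 2, 2 and 0 imprinted genes were called higher, and with 24 h replicate 1, 2 or 3 left out, 0, 2 and 0.

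**Figure D5:**
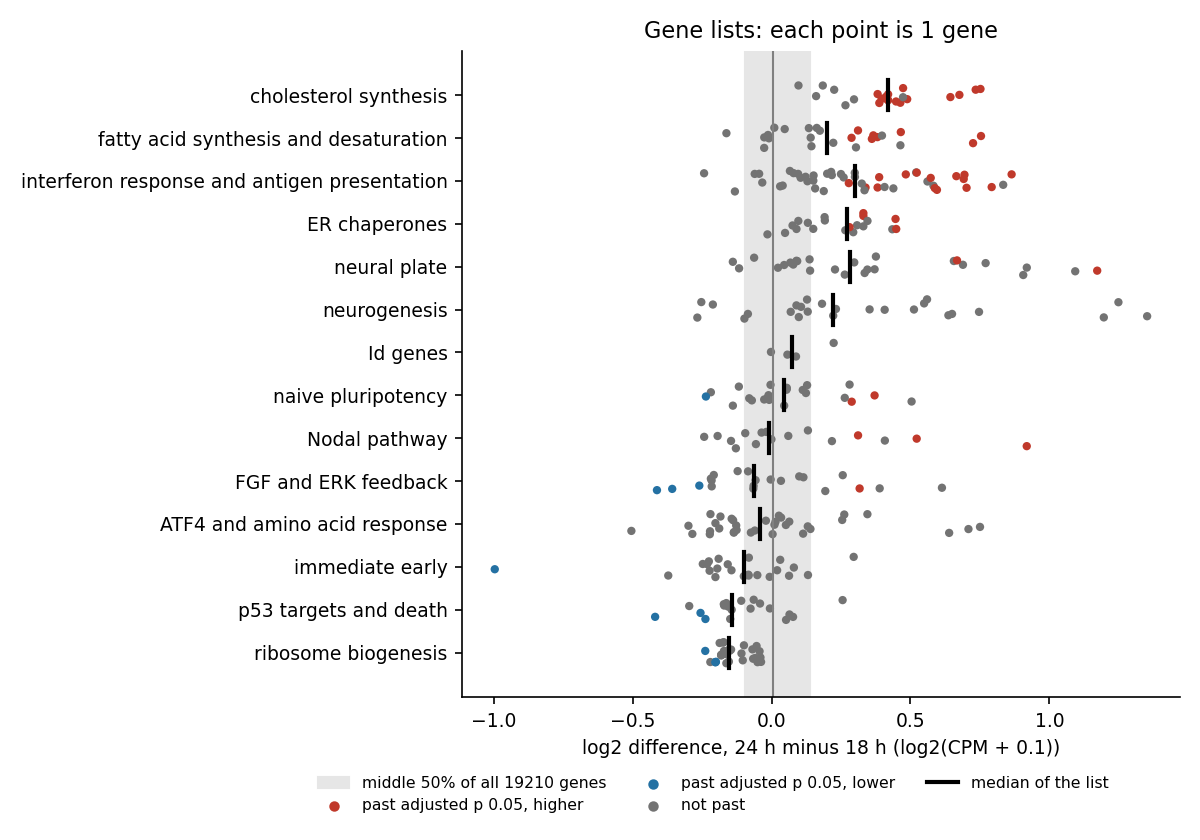
Each row is a gene list and each point 1 of its genes at its log2 difference of 24 h minus 18 h on the x axis (log2(CPM + 0.1) scale), red or blue where the gene passed the adjusted p limit. The black bar is the median of the list and the grey band the middle 50% of all 19210 genes, from -0.097 to 0.138. The sterol list lies to the right of 0 throughout, and the ribosome biogenesis list to the left.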

How the data were processed

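RNA was measured in all 9 libraries by stranded mRNA sequencing. Per the labels and methods, the authors trimmed reads with cutadapt 1.9, aligned them to GRCm38 and an Ensembl annotation by STAR 2.5.2b, and tested expression in edgeR 3.16.5. The Ensembl release and the handling of strand and of reads with several alignments are not given in the sources used here. For 19210 genes past their own filter, the authors deposited a signal, namely CPM scaled to an effective library size. All of these values came out as whole reads within 0.02, and the reads entered edgeR 4.0.16 and DESeq2 1.42.0. The deposited FPKM table covers 47729 genes and served as an alternative. The deposited log2 fold changes and p-values of the authors' own comparisons were not used.

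The design had foreseen CPM, and the column sums led to the unit being recorded as a signal. The main test was limma 3.58.1 (R 4.3.3, lmFit, eBayes with a trend on mean level) on log2(CPM + 0.1), with time and replicate number as terms and Benjamini–Hochberg adjustment over all genes. This scale understates changes of low genes. Replicate numbers were taken as pairs since the study speaks of separate biological experiments and deviations from the time means correlated between libraries of the same number (mean r = 0.478, lowest 0.293, over 9 combinations and 13431 genes, against a mean of -0.234 for different numbers). The treatment text of the labels names other times than the titles, treatment entries and methods, whose 18 h and 24 h were used. Code was tested on simulated data. Coordinates come from GENCODE M21 on GRCm38, which held 19147 of the genes, and promoters from RefSeq. Python 3.11.15, pandas 2.3.3, scipy 1.17.1 and matplotlib 3.10.9 were used.

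Genes are named if they were among the 15 largest or 15 lowest differences past the limit (mean CPM of at least 1, same sign in all pairs), the 10 that most moved on or turned back, past 2-fold, list members past the limit or up to 4 others of each list, or genes the study names. Some genes that this rule names are not reported here. Other names, and 4 of the 40 lists, were chosen after values were seen. Members and lists were chosen with earlier results of these data known. Alternatives were other pseudocounts, filters, scalings, tests and left-out libraries.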

Additional observations from a re-analysis of the deposited data

How the results depend on the processing

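The values reported were 123 genes higher, 54 lower, 6 past 2-fold, and 173 that moved on and 188 that turned back among genes called at 18 h. A pseudocount of 1 left 1 gene past 2-fold, 81 that moved on and 41 that turned back, and one of 0.01 gave 35 lower. With a mean of at least 1 CPM, 2 genes passed 2-fold and 79 turned back. FPKM gave 4 higher, 2 lower, 2 past 2-fold and 124 that turned back. Without the replicate block, limma and edgeR gave 0 higher, 0 lower and 0 past 2-fold, with 989 and 983 genes at an unadjusted p under 0.05. Only the libraries at 18 h and 24 h gave 1026 higher, 904 lower and 52 past 2-fold. Median centring gave 293 lower and 13 past 2-fold, and no intensity trend 0 higher, 1 lower and 1 past 2-fold, with 1986 genes at an unadjusted p under 0.05. DESeq2 with the block gave 97 lower, 2 past 2-fold and 122 that turned back. The cause of these shifts was not tested. Leaving out a library or a replicate number gave 7 to 68 higher, 0 to 20 lower and 0 to 4 past 2-fold, with fewer samples in each fit. It gave 184 to 244 that moved on and 229 to 330 that turned back. These fits held only 2 pairs and asked for the same sign in those, so the latter counts cannot be set against those over 3 pairs. Of 177 calls, 104 were also made under both other pseudocounts, quantile normalization, median centring, edgeR and DESeq2 with the block, but FPKM shared only 3 higher and 1 lower call and no intensity trend shared 0.

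Over these alternatives, the 74 named genes past the limit kept their direction in 1547 of 1547 values and their side of the limit in 760. Among 96 other named genes, 31 of 1978 values reversed. Id1 came to 0.00395 in FPKM, 0.0359 after quantile normalization, 0.00300 in edgeR with the replicate block and 0.000469 without it. Eomes came to -0.0382 after quantile normalization and -0.0173 after median centring, which gave -0.00172 for Id3 and -0.0526 for Eif1a. With samples left out, Id1 ranged from -0.172 to 0.162, Id2 from -0.0438 to 0.170, Id3 from -0.0802 to 0.187, Eomes from -0.0348 to 0.130, Eif1a from -0.0228 to 0.0382, Cebpb from -0.0648 to 0.672, Foxd4 from -0.0386 to 0.604, Hes6 from -0.0827 to 0.0706 and Snai1 from -0.123 to 0.0440. At 22028363 to 26471569 reads a library, genes of a few reads, such as 4930507D05Rik, carried wide counting error.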

Other observations

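Lists of other cell types and pathways held few calls between 18 h and 24 h, on the same log2 scale. Of 21 mesendoderm genes, 23 neural crest and border genes, 24 Notch genes and 23 BMP genes, limma, edgeR with the block and DESeq2 called 0, with 2, 3, 5 and 1 higher and 1, 2, 0 and 1 lower at an unadjusted p under 0.05, as were 7.24% and 5.97% of all genes. In the fit to only the libraries at 18 h and 24 h, limma called 1, 4, 5 and 1 higher and 0, 2, 0 and 1 lower. That fit called 1026 higher and 904 lower of all 19210 genes. Over all genes, limma called 0.640% higher and 0.281% lower, and 20.7% were higher and 21.0% lower in all 3 pairs. Of 15 primitive endoderm genes, Dab2, an endocytic adaptor, rose by 0.38 ± 0.07. Of 29 EMT factors and cadherins, Zeb2 rose by 0.53 ± 0.11, from 9.46, 16.3 and 14.7 CPM to 13.3, 21.2 and 24.1 CPM, after 0.95 by 18 h. Of 33 Wnt pathway genes, Fzd2 rose by 0.28 and Lef1 fell from 43.5, 37.2 and 44.0 CPM to 34.6, 29.8 and 32.0 CPM, still above 22.9 to 24.97 CPM at 0 h. Among 38 axon guidance genes, the semaphorins Sema3c and Sema3e rose by 0.40 and 0.33, and the ephrin receptor gene Epha2 fell, with a difference of -0.28. In all 3 pairs, the primitive endoderm, EMT, Wnt and axon guidance lists had 3, 8, 10 and 12 genes higher and 3, 5, 5 and 4 lower. The call of Dab2 held only without 18 h replicate 1 among the 6 fits that left out 1 of the libraries compared, and that of Zeb2 only without 18 h replicate 2. The Wnt list kept 1 lower call without 18 h replicate 2 and none without any other, and the axon guidance list kept calls only without 18 h replicate 1, 18 h replicate 2 or 24 h replicate 2. Of 21 homeodomain genes of neuron subtypes, with a median difference of 0.33 (0.14 at a pseudocount of 1 CPM and 0.21 without 18 h replicate 1), limma called 0, edgeR with the block 2, DESeq2 1 and limma on only the libraries at 18 h and 24 h 4, with 5 higher at an unadjusted p under 0.05.

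Reference genes had a median difference of -0.04, and the 12 mitochondrially encoded transcripts one of -0.16. Of these 12, 6 were lower at an unadjusted p under 0.05 (5.97% of all genes) and 0 were called by limma, edgeR with the block or DESeq2. Without 24 h replicate 2 the median of the mitochondrial transcripts was -0.02, and it ran from -0.23 to -0.12 without any other of the 6 libraries. That of the reference genes ran from -0.099 to -0.013 over all settings. In the fit to only the libraries at 18 h and 24 h, 6 mitochondrial transcripts were called lower, against 904 of all 19210 genes. Apln, a secreted peptide hormone, was at 4.27, 6.30 and 5.57 CPM at 18 h and at 2.05, 4.03 and 2.96 CPM at 24 h, a difference of -0.85 ± 0.15 (adjusted p = 0.0088). Mfap4, a microfibril protein, rose from 4.53, 3.999 and 3.70 CPM to 8.67, 7.39 and 5.82 CPM, and its groups did not overlap. Rdh11, a retinol dehydrogenase, went from 40.8, 50.9 and 43.0 CPM to 66.3, 66.1 and 68.3 CPM after a fall by 18 h.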
